A study of Mus musculus with 16 samples.

Results

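Replication licensing is the step in G1 in which the MCM helicase is placed on DNA, ahead of the coming S phase. The origin recognition complex, of which Orc1 is a subunit, binds the origin and recruits Cdc6 and Cdt1, which load the ring of Mcm2 to Mcm7 in an inactive form. Mcm10 acts later, when the loaded helicase is activated. Many of these genes are targets of the E2F factors, whose release from the retinoblastoma protein depends on CDK4 and CDK6, and haematopoietic stem cells (HSCs), from which all blood cells descend, spend most of their time outside the cell cycle.

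The 10 genes described here are Mcm2, Mcm3, Mcm4, Mcm5, Mcm6, Mcm7, Mcm10, Cdc6, Cdt1 and Orc1. They were chosen by name as the MCM helicase and its loaders, and are 10 of 50686 genes in the deposited tables. All 10 had counts in each of the 16 libraries and all 10 passed the filter on low counts, which kept 15308 genes for testing.

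RNA was sequenced from HSCs of C57BL/6J mice given 1 of 4 treatments by intraperitoneal injection every 48 h for 85 days, with 4 libraries per treatment. The vehicle group received 20% DMSO and 40% PEG (400) in PBS. The palbociclib group received palbociclib, an inhibitor of CDK4 and CDK6, at 30.4 mg/kg. The rapamycin group received rapamycin, an inhibitor of the growth kinase mTOR, at 6.4 mg/kg, and the combination group received both drugs at these doses. The age of the mice is not given in the sources used here. Each library came from 10000 cells sorted in G0 or G1 after depletion of lineage-positive cells and staining for CD150, CD48, Sca-1 and CD117. Such a gate is meant to leave out cells in S, G2 and M, yet RNA of G2 and M genes was detected, as given below. Whether each library is a separate mouse is not stated, so the p-values compare these libraries, whose spread may be technical in part.

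Libraries held 10133860 to 15328830 counts and 16570 to 20418 detected genes. Markers of HSCs were detected in all 16 libraries, with Procr at 29.5 to 153 TPM (the length-scaled level the authors deposited) and Slamf1, which encodes CD150, at 5.83 to 28.9 TPM. Genes of other blood cells were present too. The summed count share of 15 neutrophil granule genes ran from 0.841% to 9.59%, and that of 10 B cell genes from 0.00522% to 1.34%. In TPM, the 15 neutrophil genes summed to between 14822 and 151025 in a library, and the 10 B cell genes to between 54.55 and 9963. For comparison, 10 HSC identity genes summed to between 577 and 1865 TPM. Vehicle 3, rapamycin 3 and vehicle 4 were the libraries least like the others, with median correlations of 0.866, 0.871 and 0.880. Values without these 3 libraries are given beside several results. For Mcm2 in palbociclib against vehicle, the log2 fold change was 0.57 ± 0.21 without them and 0.36 with them. Without these 3 libraries the vehicle group holds only vehicle 1 and vehicle 2, so such values rest on fewer vehicle libraries.

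E2F motifs were searched in the promoter windows of the members, 250 bases before to 50 after each RefSeq start (build GRCm38.p6), of which 9 members had at least 1 and Mcm4 had none in the table used. The letters searched on both strands were TTTGGCGC, TTTCCCGC, TTTCGCGC and TTTGCCGC. At least 1 match was found in 7 of 10 member windows (7 of the 9 members), against 744 of 32851 windows over all genes (2.3%). The members without a match were Mcm2 and Mcm10. The stretches printed are those of Mcm6 and Mcm5, in which matches on both strands overlap, of Cdc6, the member with the largest fold change averaged over both backgrounds, and of Mcm2 as a member without a match. Each ends 30 bases after the start, that of Cdc6 begins after an upstream annotated exon, and capitals mark the E2F letters.
Mcm6 (chr1:128359676-128359955, minus strand): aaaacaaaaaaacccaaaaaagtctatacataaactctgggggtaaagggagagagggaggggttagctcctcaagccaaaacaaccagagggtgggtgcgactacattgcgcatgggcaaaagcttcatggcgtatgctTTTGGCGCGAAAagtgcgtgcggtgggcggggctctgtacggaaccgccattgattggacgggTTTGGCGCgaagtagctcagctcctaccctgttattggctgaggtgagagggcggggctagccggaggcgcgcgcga
Mcm5 (chr8:75109259-75109538, plus strand): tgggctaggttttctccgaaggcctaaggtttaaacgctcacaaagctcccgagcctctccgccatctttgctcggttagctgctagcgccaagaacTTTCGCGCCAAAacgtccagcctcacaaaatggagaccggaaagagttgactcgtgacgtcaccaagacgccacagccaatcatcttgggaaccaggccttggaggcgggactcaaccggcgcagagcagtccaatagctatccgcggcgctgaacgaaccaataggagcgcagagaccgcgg
Cdc6 (chr11:98907982-98908180, plus strand): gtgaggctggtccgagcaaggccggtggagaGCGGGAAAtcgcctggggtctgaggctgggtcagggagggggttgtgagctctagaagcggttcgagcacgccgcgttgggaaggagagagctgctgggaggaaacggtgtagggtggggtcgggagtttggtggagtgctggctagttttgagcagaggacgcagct
Mcm2 (chr6:88898751-88899030, minus strand): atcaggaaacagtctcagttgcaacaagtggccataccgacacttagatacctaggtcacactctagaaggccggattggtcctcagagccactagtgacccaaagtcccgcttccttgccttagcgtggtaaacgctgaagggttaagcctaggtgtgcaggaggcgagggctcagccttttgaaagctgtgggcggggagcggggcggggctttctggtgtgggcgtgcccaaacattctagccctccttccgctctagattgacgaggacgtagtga

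In Mcm6 the matches lay at positions -110 to -103, -106 to -99 and -47 to -40 from the start, and in Mcm5 at -153 to -146 and -149 to -142. The Cdc6 match lay at -138 to -131. Of the members not shown, Mcm7 had matches at -165 to -158 and 17 to 24, Orc1 at -27 to -20, Mcm3 at 20 to 27 and 39 to 46, and Cdt1 at 33 to 40. The letters CCAAT were searched on both strands as the box bound by NF-Y. They were in 8 of 10 member windows (7 of the 9 members) and in 37.4% of all windows. The letters TTTGAA of the cell cycle homology region are typical of genes of G2 and M. They were in 1 of 10 member windows, that of Mcm2, and in 17.9% of all windows. A match describes these letters only and is not a measured binding site.

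The helicase subunits were the most abundant members. On the TPM scale, which divides by transcript length and so allows genes to be compared, Mcm6 averaged 209 ± 56.1 and Mcm7 205 ± 43.4 (SD, n = 16), and Mcm6 was the higher of the 2 in 9 of 16 libraries. Mcm5 at 146 ± 33.9 TPM and Mcm3 at 144 ± 36.3 TPM were also close, with Mcm5 higher in 10 of 16. Mcm2 followed at 106 ± 24.6 TPM. Mcm4 was the lowest of the 6 ring subunits in 16 of 16 libraries, at 52.8 ± 15.5 TPM. These neighbours in the order, Mcm6 with Mcm7 and Mcm5 with Mcm3, differed by less than their spread.

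The loading factors were lower than most of the ring. Cdt1 averaged 41.7 ± 8.90 TPM and Cdc6 32.7 ± 11.9 TPM, with Cdt1 the higher in 13 of 16 libraries. Mcm10 averaged 15.9 ± 6.19 TPM and Orc1 11.9 ± 3.89 TPM, and Mcm10 was the higher in 11 of 16. Mcm4 exceeded Cdt1 in 13 of 16 libraries, although the vehicle means were 37.2 ± 6.3 TPM for Mcm4 and 42.5 ± 9.6 TPM for Cdt1 (SD, n = 4).

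The summed level of Mcm2 to Mcm7 was highest in the palbociclib and combination groups. Vehicle libraries had 847, 547, 581 and 692 summed TPM, and palbociclib libraries had 973, 1199, 980 and 927. Rapamycin libraries had 818, 699, 697 and 961, and combination libraries had 1132, 1122, 783 and 839. No vehicle library reached the lowest palbociclib value, while the combination and rapamycin libraries overlapped, since rapamycin 4 was above combination 3 and combination 4. Group means were 667 ± 135, 1020 ± 122, 794 ± 125 and 969 ± 184 TPM (SD, n = 4) in the vehicle, palbociclib, rapamycin and combination groups.

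The proportions of the 6 subunits overlapped between groups. In the order vehicle, palbociclib, rapamycin, combination, Mcm4 made up 5.61% ± 0.48, 6.83% ± 1.41, 5.91% ± 1.07 and 6.13% ± 1.56 of the sum (SD, n = 4). Mcm7 held 24.2% ± 1.6, 23.6% ± 1.0, 24.3% ± 0.84 and 23.5% ± 0.47. Mcm2 held 13.5% ± 1.7, 11.6% ± 1.6, 11.7% ± 0.84 and 12.5% ± 0.73. The ranges of the vehicle and palbociclib shares overlapped for each of the 6 subunits.

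**Figure D1:**
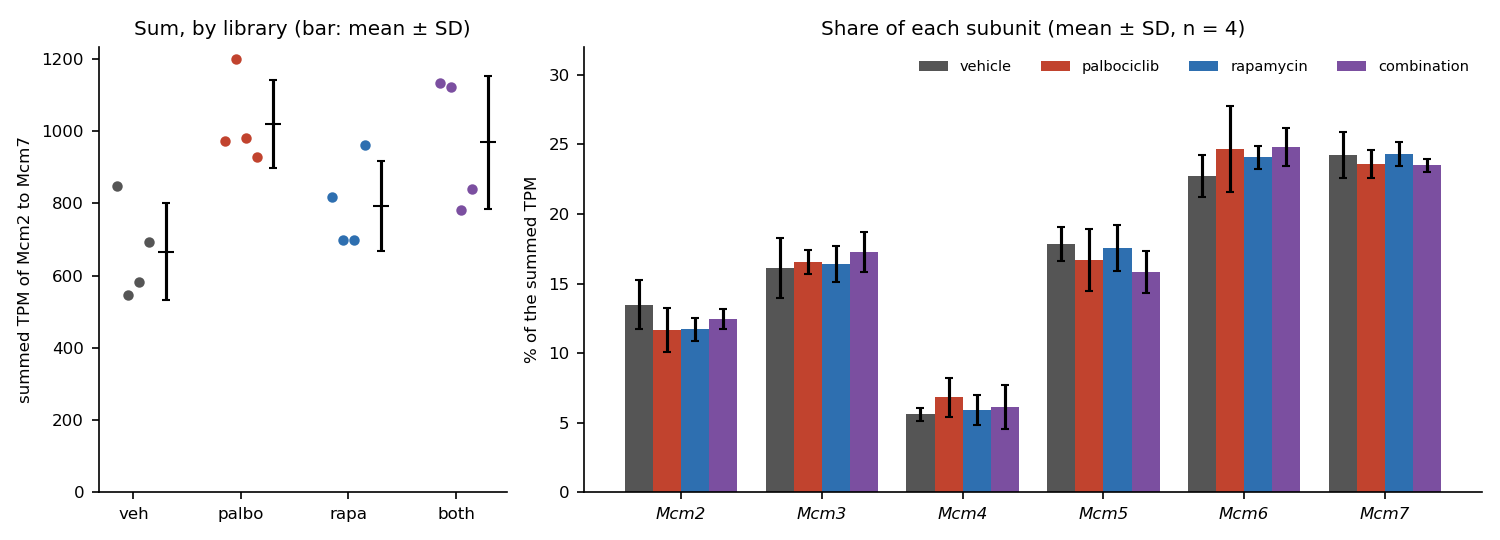
Left, the summed TPM of Mcm2 to Mcm7 in each library (points) with the mean ± SD of 4 libraries a group (veh, vehicle; palbo, palbociclib; rapa, rapamycin; both, combination). Right, the share of each subunit in that sum as the mean ± SD. Palbociclib libraries at 927 to 1199 TPM lie above vehicle libraries at 547 to 847 TPM, and Mcm4 has the smallest share in every group.

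The comparison of palbociclib with vehicle asked how inhibition of CDK4 and CDK6 alone altered these genes. All 10 members had higher fitted levels in palbociclib libraries, from a log2 fold change of 0.09 for Cdt1 to 0.86 for Mcm4, with a median of 0.61. The sign of Cdt1 turned when vehicle 1, vehicle 3 or palbociclib 1 was left out, which gave 9 of 10. Over all 15308 genes tested, 47.8% had positive fold changes and the median was -0.03. No member passed the test (edgeR's quasi-likelihood F test, Benjamini-Hochberg adjusted over all genes, adjusted p of 0.212 to 0.945), and neither did any other gene (0% called). Unadjusted p was under 0.05 for 6 of 10 members, where 9.51% of all genes reached it. The members share the same libraries, so they are not replicates of this difference. Markers of other cells differed between the same libraries: 12 of 15 neutrophil granule genes had positive fold changes (median 0.91), 8 of 9 B cell genes tested had negative ones (median -1.74, with unadjusted p under 0.05 for 4), and 8 of 10 HSC identity genes had negative ones (median -0.32). None of these marker genes passed the edgeR test. With the neutrophil and B cell shares as covariates, all 10 members had positive fold changes, with a median of 0.63. These shares were measured in the same libraries after treatment, and whether cell makeup caused the differences was not tested.

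Mcm6 and Mcm7, subunits of the helicase ring, had the smallest p-values of the members. Mcm6 (ENSMUSG00000026355, chromosome 1, 128331590 to 128359664, minus strand, GRCm38) was at 393, 316, 339 and 430 CPM (library-scaled counts) in vehicle libraries and at 511, 694, 650 and 534 CPM in palbociclib libraries. Every palbociclib library was above every vehicle library, and the log2 fold change was 0.69 ± 0.15 (SE, 95% interval 0.37 to 1.02, edgeR adjusted p = 0.212). Mcm7 (ENSMUSG00000029730, chromosome 5, 138164583 to 138172422, minus strand) was at 340, 312, 275 and 372 CPM in vehicle and at 507, 499, 539 and 422 CPM in palbociclib libraries. Its groups did not overlap either, and the log2 fold change was 0.60 ± 0.14 (95% interval 0.30 to 0.90, edgeR adjusted p = 0.212).

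Mcm4 and Mcm3, further ring subunits, also separated. Mcm4 (ENSMUSG00000022673, chromosome 16, 15623897 to 15637400, minus strand) was at 107, 93.3, 101 and 148 CPM in vehicle and at 170, 193, 272 and 181 CPM in palbociclib libraries. All palbociclib values exceeded the highest vehicle value, and the fold change on the log2 scale was 0.86 ± 0.22 (95% interval 0.39 to 1.33, edgeR adjusted p = 0.272). Mcm3 (ENSMUSG00000041859, chromosome 1, 20802968 to 20820312, minus strand) was at 291, 251, 184 and 371 CPM against 448, 423, 407 and 382 CPM. The lowest palbociclib library was just above the highest vehicle library, with a log2 difference of 0.60 ± 0.19 (edgeR adjusted p = 0.335). These 4 of 10 members lay above vehicle without overlap, as did 2.83% of all genes tested.

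For the other ring subunits the groups overlapped. Mcm2 (ENSMUSG00000002870, chromosome 6, 88883474 to 88898780, minus strand) ranged from 195 to 327 CPM in vehicle and from 284 to 396 CPM in palbociclib libraries, a log2 difference of 0.36 ± 0.19. Mcm5 (ENSMUSG00000005410, chromosome 8, 75109569 to 75128439, plus strand) ranged from 193 to 332 CPM and from 290 to 454 CPM, a log2 difference of 0.48 ± 0.21. Vehicle 4 alone reached into the palbociclib range of Mcm2, and vehicle 1 and vehicle 4 into that of Mcm5. Vehicle 4 had the highest vehicle value of all 6 ring subunits.

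Cdc6, the ATPase that brings Cdt1 and the MCM ring to the origin, had the largest difference among the loaders. Cdc6 (ENSMUSG00000017499, chromosome 11, 98907801 to 98923940, plus strand) was at 29.5, 57.0, 89.2 and 48.0 CPM in vehicle and at 117, 84.3, 108 and 92.2 CPM in palbociclib libraries. Vehicle 3 alone overlapped the palbociclib group, and the log2 fold change was 0.84 ± 0.26 (95% interval 0.30 to 1.38, edgeR adjusted p = 0.333). Without vehicle 3, rapamycin 3 and vehicle 4 it was 1.22 ± 0.26 (edgeR adjusted p = 0.145). That fit keeps only the vehicle libraries at 29.5 and 57.0 CPM and drops the highest vehicle value, 89.2 CPM.

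Cdt1 differed least. Cdt1 (ENSMUSG00000006585, chromosome 8, 122568015 to 122573554, plus strand) was at 56.9, 74.6, 59.6 and 116 CPM in vehicle and at 112, 73.1, 75.7 and 65.4 CPM in palbociclib libraries. Each group held 1 high library and 3 lower ones, and the log2 difference was 0.09 ± 0.26. Its 95% interval, -0.46 to 0.63, holds the estimates of Mcm2, Mcm3, Mcm5 and Mcm7, and the difference between Cdt1 and the ring was not tested. Leaving out 1 library at a time gave -0.10 to 0.36, negative without vehicle 1, vehicle 3 or palbociclib 1 and highest without vehicle 4.

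Orc1, the largest subunit of the origin recognition complex, and Mcm10 had the lowest counts and the widest intervals. Orc1 (ENSMUSG00000028587, chromosome 4, 108579423 to 108614833, plus strand) was at 17.3, 12.0, 23.3 and 18.2 CPM in vehicle and at 22.5, 31.8, 39.8 and 20.3 CPM in palbociclib libraries, a log2 difference of 0.69 ± 0.35. Mcm10 (ENSMUSG00000026669, chromosome 2, 4989714 to 5012791, minus strand) was at 43.0, 23.7, 26.8 and 29.0 CPM against 61.9, 48.5, 40.9 and 36.3 CPM, a log2 difference of 0.62 ± 0.37. In both genes the highest vehicle library lay within the palbociclib range. In bulk libraries such as these, more cells expressing a gene and more RNA per cell cannot be told apart.

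**Figure D2:**
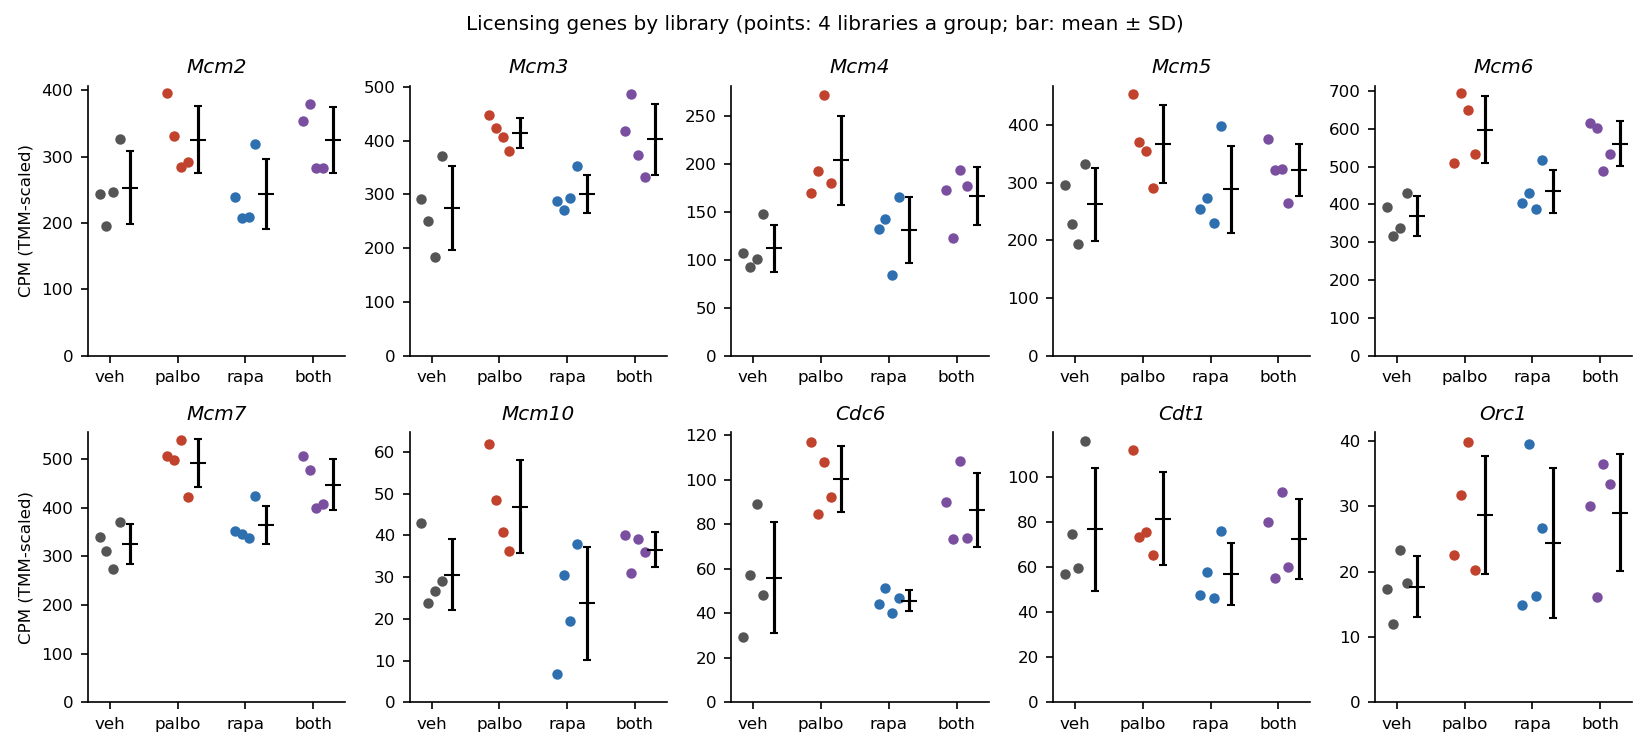
Level of each member in CPM (counts scaled by library size and TMM factor; each axis starts at 0) in the 16 libraries, with the mean ± SD of 4 libraries a group (veh, vehicle; palbo, palbociclib; rapa, rapamycin; both, combination). Mcm3, Mcm4, Mcm6 and Mcm7 in palbociclib libraries lie above all vehicle libraries, and Cdc6 in combination libraries lies above all rapamycin libraries.

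Adding palbociclib to rapamycin compared the same inhibitor on another background, with group means from the 8 libraries outside the palbociclib and vehicle groups. Scaling and spread were estimated from all 16 libraries, so the tests of both comparisons are not independent. All 10 members again had positive fold changes, from 0.16 for Mcm5 to 0.92 for Cdc6, with a median of 0.35 against -0.02 over all genes. No member passed the test (edgeR adjusted p of 0.265 to 0.882), while 5 of all genes did (0.0327%). Unadjusted p was under 0.05 for 4 of 10 members, namely Mcm2, Mcm3, Mcm6 and Cdc6, and for 9.79% of all genes. Between these libraries 8 of 9 erythroid genes had negative fold changes (median -2.22), as did 8 of 9 B cell genes tested (-1.43). HSC identity genes were negative for 7 of 10 (-0.40) and neutrophil granule genes for 8 of 15 (-0.06). Whether cell makeup caused the differences was not tested.

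Cdc6 had the smallest p-value of the 10 members here. Rapamycin libraries were at 44.2, 51.5, 40.0 and 46.9 CPM, and combination libraries were at 89.8, 73.3, 108 and 73.5 CPM. The groups did not overlap, which held for 1 of 10 members and 4.98% of all genes in this direction, and the log2 fold change was 0.92 ± 0.26 (95% interval 0.38 to 1.46, edgeR adjusted p = 0.265). The rapamycin libraries varied by 10.6% of their mean, against 44.6% in vehicle libraries. Leaving out vehicle 3, rapamycin 3 and vehicle 4 gave 0.86 ± 0.22 (edgeR adjusted p = 0.216).

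Among the ring subunits, Mcm6 was at 405, 430, 389 and 516 CPM in rapamycin and at 615, 603, 488 and 534 CPM in combination libraries, a log2 difference of 0.36 ± 0.15 (edgeR adjusted p = 0.443). Rapamycin 4 lay among the combination libraries. Mcm2 and Mcm3 each differed by 0.42 on the log2 scale, with SE of 0.19 for both, Mcm7 by 0.29 ± 0.14 and Mcm4 by 0.35 ± 0.22. Mcm10 was at 6.85, 30.5, 19.5 and 37.9 CPM in rapamycin and at 40.1, 30.9, 39.2 and 36.0 CPM in combination libraries, so rapamycin 1 carried much of its log2 difference of 0.62 ± 0.37, which was 0.32 without that library.

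**Figure D3:**
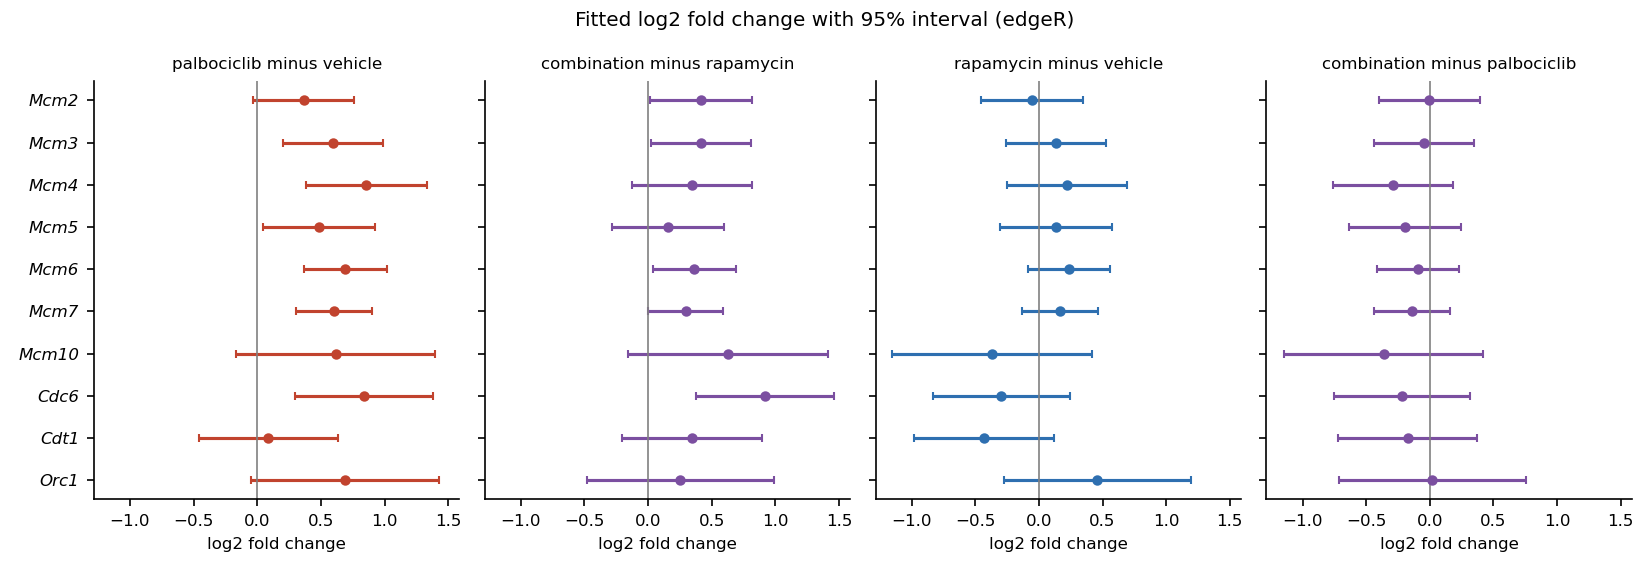
Fitted log2 fold change (points) of each member with its 95% interval (bars) in 4 comparisons. In the 2 panels that compare libraries with and without palbociclib all 10 points lie above 0, with medians of 0.61 and 0.35, while rapamycin minus vehicle has a median of 0.14 and combination minus palbociclib one of -0.16.

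Averaged over both rapamycin backgrounds, 8 libraries with palbociclib were compared with 8 without, the same libraries as in the 2 comparisons above. All 10 members had positive fold changes, with a median of 0.49 against -0.02 for all genes. No member passed at 0.05 in edgeR, and 42 of all genes did (0.274%). Cdc6, with a log2 fold change of 0.88 ± 0.18, and Mcm6, with 0.53 ± 0.11, came nearest, both at an edgeR adjusted p of 0.0555, followed by Mcm7 with 0.45 ± 0.10 at 0.0697. Unadjusted p was under 0.05 for 8 of 10 members, all but Cdt1 and Orc1, where 13.8% of all genes reached it.

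The call of these members depended on single libraries and on the tool. Without vehicle 3, Cdc6 passed with a log2 fold change of 1.04 (edgeR adjusted p = 0.00931). Without vehicle 4, Mcm3 and Mcm6 passed (edgeR adjusted p = 0.0482 and 0.0470), and without palbociclib 1, Mcm6 passed (0.0476). DESeq2 called 5 members in this average, Mcm3, Mcm4, Mcm6, Mcm7 and Cdc6, among 475 genes, and 3 members in palbociclib against vehicle, Mcm4, Mcm6 and Mcm7, among 112 genes. No member had all 8 libraries with palbociclib above all 8 without it, which was so for 0.163% of all genes.

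With rapamycin alone, the signs of the members were mixed and depended on which libraries were used. Against vehicle, 6 had positive and 4 negative fold changes, from -0.43 for Cdt1 to 0.46 for Orc1, with a median of 0.14 against -0.01 for all genes. No member passed the test (edgeR adjusted p of 0.783 to 0.984) or had an unadjusted p under 0.05, and of all genes 0.00653% passed and 7.65% had such a p. No member lay above vehicle without overlap, and 1.57% of all genes did. The negative fold changes were those of Mcm2, Mcm10, Cdc6 and Cdt1. Without vehicle 3, rapamycin 3 and vehicle 4, 8 of 10 were positive and the median was 0.21. Mcm2 was then at 0.22 ± 0.22, Cdc6 at 0.14 ± 0.26, Mcm4 at 0.55 ± 0.23 and Orc1 at 0.89 ± 0.45 on the log2 scale. Mcm4 alone then had an unadjusted p under 0.05, and its edgeR adjusted p was 0.558. For Mcm6 the log2 difference was 0.24 ± 0.15, with a 95% interval of -0.09 to 0.56.

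The combination compared with vehicle gave 9 of 10 positive fold changes, with a median of 0.51 against -0.02 for all genes. Mcm6 at 0.60 ± 0.15 and Mcm7 at 0.46 ± 0.14 on the log2 scale were above vehicle without overlap (edgeR adjusted p = 0.221 and 0.263), as were 3.38% of all genes. Cdt1 was the exception in sign, with a log2 difference of -0.09 ± 0.26. It was 0.18 without vehicle 4, and 0.14 ± 0.28 without vehicle 3, rapamycin 3 and vehicle 4, where 10 of 10 members were positive with a median of 0.57. Cdc6 was at 1.00 ± 0.26 without those 3 libraries, against 0.62 with them. Unadjusted p was under 0.05 for 5 of 10 members and 10.5% of all genes, and no gene passed the adjusted test (0%). Markers of other cells differed here too. Fold changes were negative for 9 of 9 B cell genes tested (median -4.82), 6 of 6 T and NK cell genes (-2.85) and 7 of 9 erythroid genes (-1.59). Neutrophil granule genes were split, 8 of 15 being positive (0.38), as were HSC identity genes, 6 of 10 being negative (-0.05). Whether cell makeup caused the differences was not tested. The 3 comparisons with vehicle share the same 4 vehicle libraries, so their values are not independent of each other.

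Adding rapamycin to palbociclib gave 9 of 10 negative fold changes, from -0.36 for Mcm10 to 0.02 for Orc1, with a median of -0.16 against -0.01 for all genes. No member had an unadjusted p under 0.05, where 2.85% of all genes did, and no gene passed the adjusted test (0%; edgeR adjusted p of 1.000 for the members). No member of the combination group lay below the palbociclib group without overlap, against 1.61% of all genes. For Mcm6 the interval of the difference ran from -0.42 to 0.23, and for Cdc6 from -0.75 to 0.32.

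Averaged over both palbociclib levels, rapamycin gave 4 positive and 6 negative fold changes with a median of -0.03, and 0 members with an unadjusted p under 0.05, against 4.64% of all genes and 0% called. The interaction, which tests whether the difference made by palbociclib depended on rapamycin, was between -0.51 ± 0.31 for Mcm4 and 0.26 ± 0.37 for Cdt1 on the log2 scale. Its median was -0.24, with 6 of 10 members negative, no member at an unadjusted p under 0.05 (5.67% of all genes) and no gene called (0%, smallest edgeR adjusted p of a member 0.962). For Cdc6 it was 0.08 ± 0.36, with a 95% interval of -0.68 to 0.84, and for Mcm6 -0.33 ± 0.22, with an interval of -0.79 to 0.13.

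Genes of G2 and M, which mark dividing cells, also differed in level between the groups. The mean log2 CPM of 20 such genes was 6.13 ± 0.27 (lowest library 5.78) with palbociclib and 5.31 ± 0.37 (highest library 5.85) with vehicle (SD, n = 4). It was 5.65 ± 0.35 in the rapamycin group and 5.36 ± 0.70 in the combination group, whose libraries ran from 4.43 to 6.07. None of the 20 was at 0 in any group, and their summed level ran from 660 to 1720 TPM in vehicle, 1438 to 1979 in palbociclib, 999 to 1365 in rapamycin and 513 to 1422 in combination libraries. In palbociclib against vehicle 20 of 20 had positive fold changes, against 47.8% of all genes, and none of the 20 was called. In combination against rapamycin 14 of 20 had negative ones with a median of -0.20, while 10 of 10 licensing genes had positive ones. Of all genes, 48.1% were positive there.

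With the G2 and M level as a covariate, 9 of 10 members kept positive fold changes in palbociclib against vehicle, with a median of 0.50. The G2 and M level was measured in the same libraries after treatment and hardly overlapped between these groups. The fit therefore cannot separate it from the treatment, and whether cell cycling caused the differences was not tested. Mcm6 had a log2 fold change of 0.83 ± 0.18, Mcm3 of 0.87 ± 0.21 and Mcm7 of 0.73 ± 0.17, all larger than without the covariate, and Mcm4 was at 0.67 ± 0.27. Cdc6 was at 0.48 ± 0.26, Mcm10 at 0.21 ± 0.45, Orc1 at 0.14 ± 0.35 and Cdt1 at -0.16 ± 0.33, all smaller, and none of the 10 passed (edgeR adjusted p of 0.508 to 0.966). In combination against rapamycin the same covariate gave 1.05 ± 0.23 for Cdc6 (edgeR adjusted p = 0.153). With the neutrophil and B cell shares as covariates, palbociclib against vehicle gave 0.75 ± 0.15 for Mcm6 and 0.74 ± 0.24 for Cdc6.

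Across libraries, the ring subunits were positively correlated with each other. Cdc6 had a negative r with 5 of the 6, from -0.06 with Mcm2 to -0.50 with Mcm3, and whether these differ from 0 was not tested. After the group means were taken off, log2 CPM correlated at 0.18 to 0.85 among the 15 pairs of Mcm2 to Mcm7, with a median Pearson r of 0.59 over the 16 libraries. The highest pairs were Mcm5 with Mcm7 at 0.85 and Mcm3 with Mcm7 at 0.82, and the lowest were those of Mcm4 with Mcm3 at 0.18 and with Mcm2 at 0.21. Cdc6 correlated with the 6 subunits at -0.50 to 0.12, with a median of -0.27. Cdt1 had a median of 0.50 with the ring, Mcm10 of 0.29 and Orc1 of 0.08, and Orc1 correlated best with Mcm4 at 0.68. These values are a description, since all pairs share the same libraries and their depth and cell makeup.

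**Figure D4:**
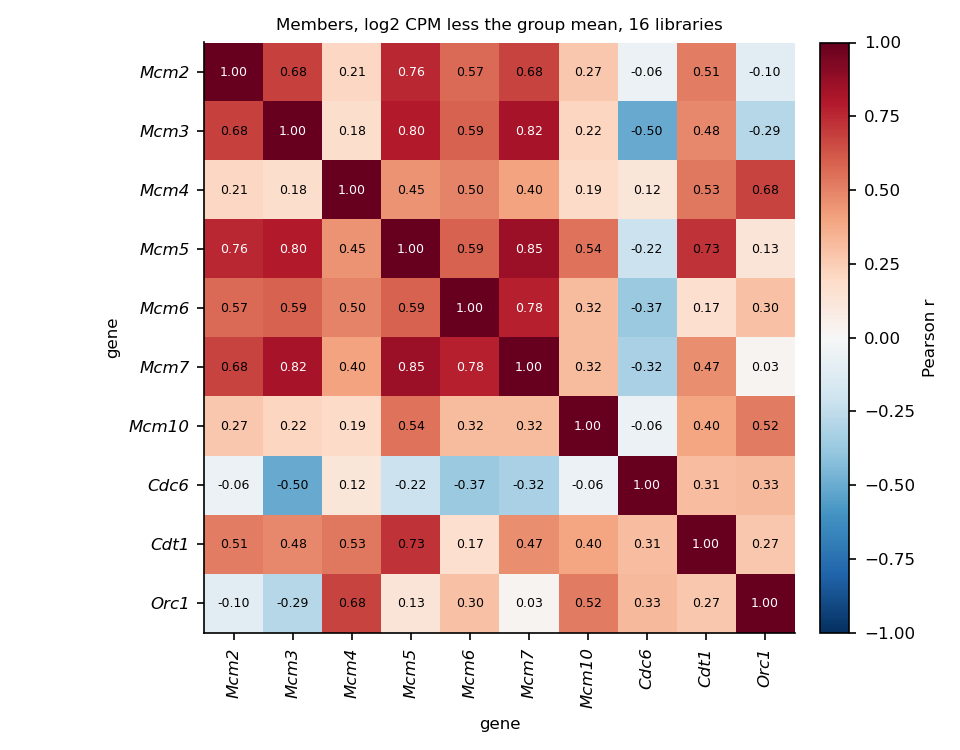
Pearson r between members over 16 libraries, from log2 CPM less the group mean (red positive, blue negative; each cell gives r). Mcm2, Mcm3, Mcm5, Mcm6 and Mcm7 form a block of 0.57 to 0.85, while Cdc6 is between -0.50 and 0.12 with the ring subunits.

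The genes whose pattern was most like the mean of Mcm2 to Mcm7 over the 16 libraries, of 10942 compared after taking off the group means, were Acly with r = 0.91, an enzyme that makes cytosolic acetyl-CoA, and Srebf1 with r = 0.90, a regulator of lipid synthesis. Cherp, Nol6, Dnmt1, the maintenance DNA methyltransferase, Tmem201, Hip1r, Mbtps1, Pigk and Ddb1 followed, down to 0.86. With the group means kept, 3 of these 10 remained among the first 10, and with Spearman's rho 4 did. Those kept with the group means were Acly, Srebf1 and Pigk, and those kept by rho were Tmem201, Ddb1, Hip1r and Dnmt1. By rho Acly ranked 34 and Srebf1 21. In palbociclib against vehicle, Acly was at 281 ± 41.9 CPM against 217 ± 48.9 and Dnmt1 at 206 ± 28.9 against 135 ± 54.6 (SD, n = 4), and neither passed the test. Srebf1 and Pigk differed by 0.40 and 0.26 on the log2 scale. Nol6, Mbtps1 and Ddb1 differed by 0.04, 0.04 and 0.05, and Cherp, Tmem201 and Hip1r by -0.12, -0.24 and -0.37.

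Of 30 other genes of licensing and helicase activation, 29 were tested, Mcmdc2 being too low, and none passed the edgeR test in any of the 8 comparisons. In palbociclib against vehicle 26 of 29 had positive fold changes, with a median of 0.37, and 9 had an unadjusted p under 0.05. Of all genes tested, 47.8% were positive and 9.51% had such a p. In combination against rapamycin 18 of 29 were positive, with a median of 0.02, and none had an unadjusted p under 0.05. There, 48.1% of all genes were positive and 9.79% had such a p. The interaction was negative for 26 of 29, with a median of -0.30. Averaged over rapamycin, 24 of 29 had positive fold changes with palbociclib, with a median of 0.20. Of all genes, 50.7% had a positive interaction and 48.3% a positive averaged fold change. The 29 genes share the same libraries, so they are not replicates of these differences. Except for Orc2, Orc5, Gmnn and Topbp1, those named below were picked for the smallest p-values in the palbociclib average. That average uses the same libraries, so a lack of overlap in the picked genes follows in part from the choice. The shares of all genes beside them give scale only.

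The partners of Orc1 in the origin recognition complex were split. In palbociclib against vehicle, Orc3 was at 67.6 ± 16.2 CPM against 42.2 ± 6.4 (SD, n = 4), a log2 difference of 0.68 ± 0.26 without overlap. Of all genes tested, 2.83% lay above vehicle without overlap. Orc4 differed by 0.85 ± 0.35 and Orc6 by 0.65 ± 0.29, and the groups overlapped for both. Orc2 differed by 0.01 ± 0.30 and Orc5 by -0.02 ± 0.28. In combination against rapamycin, Orc3 was at 61.4 ± 23.1 CPM against 60.9 ± 8.9, Orc4 differed by 0.03 ± 0.35 and Orc6 by 0.19 ± 0.29, none with an unadjusted p under 0.05.

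Among regulators of licensing, Dtl, the adaptor of the ubiquitin ligase that degrades Cdt1, was at 113 ± 30.5 CPM in palbociclib and 67.0 ± 17.5 in vehicle libraries, a log2 difference of 0.75 ± 0.30 without overlap. Mcmbp, a binding partner of MCM proteins, was at 102 ± 16.9 CPM in combination and 82.0 ± 2.5 in rapamycin libraries, a log2 difference of 0.31 ± 0.17 without overlap. Without overlap, 2.83% of all genes lay above vehicle with palbociclib, and 4.98% lay above rapamycin with the combination. Kat7, a histone acetyltransferase that acts at origins, differed by 0.29 ± 0.17 and 0.18 ± 0.17 in the 2 comparisons. Gmnn, the inhibitor of Cdt1, was at 71.2 ± 10.9 CPM in palbociclib and 54.5 ± 22.2 in vehicle libraries, with a log2 difference of 0.39 ± 0.28.

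Of the genes that turn the loaded ring into an active helicase, Cdc45 was at 89.7 ± 11.4 CPM in palbociclib and 56.1 ± 5.9 in vehicle libraries, and Gins4 at 84.9 ± 7.7 against 65.7 ± 6.0 CPM. Both bind the ring to form the working helicase, and their log2 differences of 0.68 ± 0.23 and 0.37 ± 0.15 came without overlap (edgeR adjusted p = 0.395 and 0.447). Of all genes tested, 2.83% lay above vehicle without overlap. In combination against rapamycin Cdc45 and Gins4 differed by 0.20 ± 0.23 and 0.26 ± 0.15, with overlap. Topbp1, a scaffold of helicase activation, was at 73.7 ± 12.9 CPM in palbociclib, 41.6 ± 10.2 in vehicle, 70.0 ± 17.7 in rapamycin and 53.6 ± 13.2 in combination libraries. Its log2 difference was thus 0.82 ± 0.25 against vehicle and -0.38 ± 0.24 for combination against rapamycin.

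**Figure D5:**
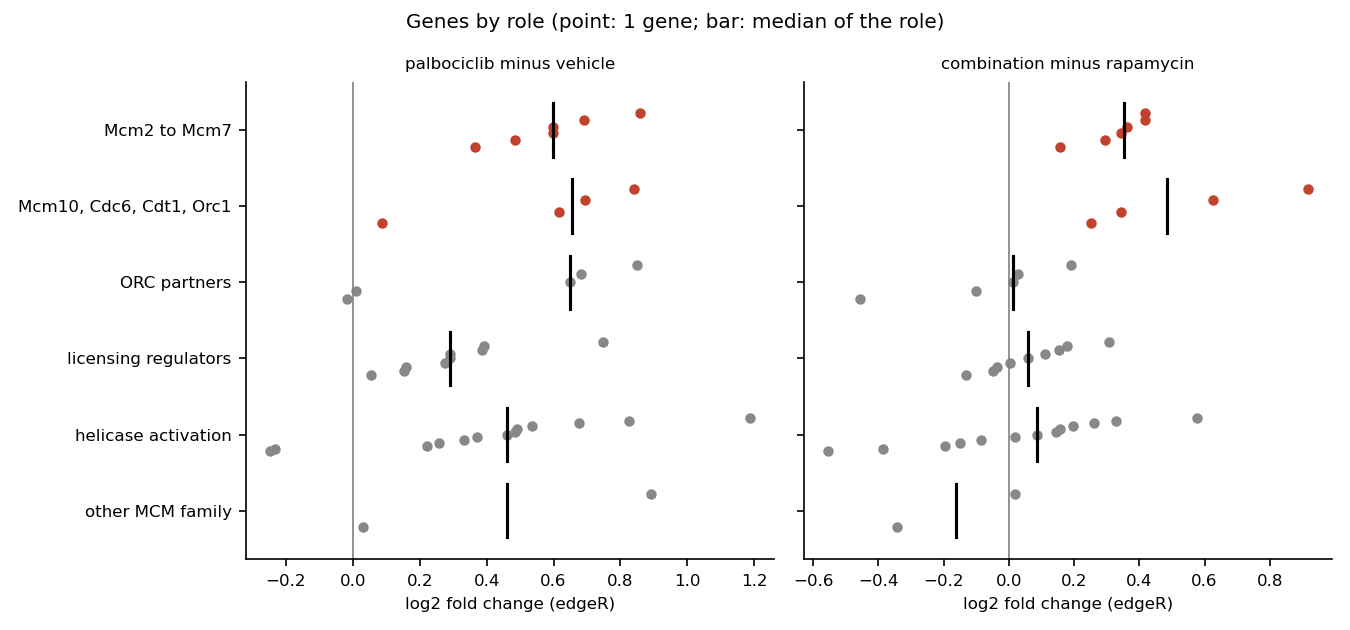
Fitted log2 fold change of the members (red) and of 29 other licensing genes (grey), grouped by role, with the median of each role as a bar. The other genes have a median of 0.37 in palbociclib minus vehicle and 0.02 in combination minus rapamycin, where the 10 members have 0.61 and 0.35.

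Several members lie close to other genes, and the strand of the reads is not given in the sources used here, so overlapping parts could not be told apart. The start of Prkdc, the catalytic subunit of DNA-dependent protein kinase, is 466 bases from that of Mcm4 on the other strand, and that of Prpf38a is 87 bases from Orc1. In palbociclib against vehicle these neighbours differed by 0.38 ± 0.69 and 0.10 ± 0.17 on the log2 scale, against 0.86 and 0.69 for Mcm4 and Orc1. Ap4m1 overlaps Mcm7 by 421 bases and differed by 0.29 ± 0.50, and Cops6, which overlaps it by 64 bases, by -0.06 ± 0.24. The microRNA genes Mir25, Mir93 and Mir106b lie inside Mcm7 and had 6, 0 and 11 counts in all libraries together, too few to test. A predicted read-through gene, Gm20388, overlaps the whole of Cdt1, 5540 bases, and was at 51.7 ± 16.1 CPM in palbociclib and 58.9 ± 12.8 in vehicle libraries, so the split of reads between it and Cdt1 is uncertain.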

How the data were processed

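Expected counts and log2(TPM + 1) values per gene were deposited by the authors for 16 libraries made with a low-input kit, per the labels' protocols. The submitters' processing notes name the build mm10 and the tools RSEM 1.3.0, STAR 2.5.3a and SAMtools 1.3, and no settings. The counts were already whole. TPM came from undoing the deposited log2 with its pseudocount of 1. Symbols came from GENCODE M21 (GRCm38), which named 50462 of 50686 IDs. Counts were tested with edgeR 4.0.16 (R 4.3.3): filterByExpr, TMM factors (0.889 to 1.14), 1 mean per group over all 16 libraries (12 residual degrees of freedom), quasi-likelihood F tests and Benjamini-Hochberg adjustment over 15308 genes at 0.05. The common dispersion was 0.311. Group levels are TMM-scaled CPM. Intervals are 95% intervals of the fit. Within groups the chi-square of 2 libraries was at least 24.5 per degree of freedom, so none was the same library sequenced again. This value does not show whether libraries came from the same mouse. Alternatives were DESeq2 1.42.0, limma 3.58.1, other scaling and filters, covariates, and leaving libraries out. All members were named, with 30 fixed genes of the pathway by role (of these, those of smallest p), the 10 genes most like the ring, and genomic neighbours; Orc2, Orc5, Gmnn and Topbp1 were added after their values were seen. The members, lists and rules were chosen with earlier results of these data known.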

Additional observations from a re-analysis of the deposited data

Results flagged for a closer look

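Each member's 4 values in each group were examined for a library far from the others of its group, 40 sets in all. In 1 of them the gap was large for the range: Mcm7 in rapamycin 4 was at 423 CPM, where the next highest rapamycin library was at 351 CPM. The gap was 0.835 of the range of the group. Chance alone flags about 1 in 20 such sets. Rapamycin 4 was the highest rapamycin library for Mcm2, Mcm3, Mcm4, Mcm5, Mcm6, Mcm7, Mcm10 and Cdt1. Without it the median log2 fold change of the members for combination against rapamycin was 0.49, against 0.35 with it.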

How the results depend on the processing

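Members' median fold changes kept their sign in every alternative for palbociclib against vehicle (0.50 to 0.69), combination against vehicle (0.40 to 0.57), combination against rapamycin (0.29 to 0.49) and the palbociclib average (0.46 to 0.53). So did the negative medians of combination against palbociclib (-0.23 to -0.10) and of the interaction (-0.37 to -0.12). That of rapamycin against vehicle ran from -0.00 to 0.26, and that of the rapamycin average from -0.11 to 0.05. Counts of called genes moved most. DESeq2 called 112 genes for palbociclib, 86 for rapamycin, 184 for the combination against vehicle, 21 for combination against palbociclib, 168 for combination against rapamycin, 475 for the palbociclib average, 42 for the rapamycin average and 39 for the interaction; of the members it called 3, 0, 1, 0, 0, 5, 0 and 0. Without vehicle 3, rapamycin 3 and vehicle 4, edgeR called 1 gene for palbociclib, 1 for the combination against vehicle, 3 for the interaction and 14, with 1 member (Cdc6), for the palbociclib average. With no filter on low counts it called 16 genes for combination against rapamycin, 23 for the rapamycin average and 4 for the interaction, and 1 member (Cdc6) in the palbociclib average; DESeq2's size factors gave 3 for the interaction. The rapamycin call was lost (0) with log2(TPM + 1) or with only the libraries compared. For combination against rapamycin, log2(TPM + 1) gave 13, log2(TPM + 0.1) 12, only the libraries compared 56 and cell shares as covariates 10. For the palbociclib average, voom, log2(TPM + 1) and log2(TPM + 0.1) each gave 18 and the G2 and M covariate 17, and cell shares called 1 member (Mcm6). Leaving out 1 library at a time gave 0 to 2 genes for rapamycin, 0 to 16 for combination against rapamycin, 0 to 5 for the interaction, 6 to 58 and 0 to 2 members for the palbociclib average.

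Correlations of deviations between libraries with the same replicate number were -0.21 to 0.35 (median 0.04, 7 of 24 pairs above 0.1), against a median of -0.02 and 12 of 72 above 0.1 for different numbers. The labels do not state that the numbers mark a shared batch, and not every same-number pair exceeded 0.1, so they were not taken as pairs. Yet 8 of 16 libraries correlated best with their own number. These values do not settle whether the numbers mark a shared batch. A replicate block gave 1 gene for palbociclib against vehicle, 11 for combination against rapamycin and 3 for the rapamycin average, and called no member in any comparison. The cause of these differences was not tested.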
